A study of Homo sapiens with 4 samples.

Results

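FOS, FOSB, FOSL1, JUN, JUNB, EGR1, ATF3, IER2, IER3 and KLF6 are genes of the immediate early response, and their transcripts were followed in human glioblastoma cells with and without brusatol (Bru), a quassinoid from Brucea plants known to block protein synthesis and to lower the factor NRF2. The 10 genes were picked by name from the 58735 genes of the deposited files, and each name matched 1 gene. All 10 averaged 1 FPKM or more over the libraries. FPKM, the fragments of a gene scaled by its length and by the size of the library, is a level per length. Levels of different genes are set side by side on the gene lengths that the authors deposited. These need not be the lengths of the transcripts in these cells. IER2 and IER3 are grouped here with transcription factors by their early response, although IER3 is known as a regulator of cell survival and not as a DNA-binding protein.

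The RNA came from the glioblastoma lines U251 and U87, both established from human tumours. Each contributed a library of cells without Bru, named Control. The other came from cells kept for 48 h with Bru at its IC50 (the concentration at the midpoint of inhibition), per the study's text. Values of the libraries are given in that order throughout, for U251 and then for U87. This gave 4 libraries and 1 library per condition, and the labels name no genetic change or further agent in any of them. The study dissolved Bru in DMSO, and whether these Control cells received DMSO is not stated. With 1 library per condition, no difference has a replicate check, and no p-value is given. A change is called here where the log2 ratio of FPKM + 0.1 passes 1 in either direction, a 2-fold change, and "rose" and "fell" are used only of such genes. The intervals in the text are 95% exact intervals of the ratio without the added 0.1, and they cover counting error only. They are computed on the fragments counted per gene, called reads, which were recovered from the steps of the FPKM.

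Immediate early genes are switched on within minutes when growth factors, serum or stress reach a cell, without new protein synthesis, through kinases of the MAP kinase families and factors such as SRF and CREB that already sit in the nucleus. FOS proteins pair with JUN proteins through leucine zippers and form AP-1, which binds DNA and drives later genes of growth, invasion and stress. The transcripts are known to be short-lived, so that their level often follows ongoing transcription. Neither transcription nor decay was measured in these cells, so that a ratio here cannot be assigned to either. In glioblastoma AP-1 is known for its part in mesenchymal and invasive states.

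The reads on genes ranged from 17083896 to 21453561 per library, which put 131 to 17071 reads on each of the 10 genes. Of the markers of the lines, VIM and CD44 were high in all 4 libraries (FPKM of at least 606 and 94.5). SOX2 and NES, markers of neural progenitors, were high in U251 Control (FPKM of 129 and 125), whereas U87 Control had 0 SOX2 reads and a NES level of 1.46 FPKM. SPARC, a matrix protein, stood at 411 FPKM in U251 Control and 71.1 FPKM in U87 Control. The other 4 markers of the list were under a mean FPKM of 1, with GFAP, the astrocyte filament protein, at 2.42 and 0.215 FPKM in the Control libraries, S100B at 0.296 and 0, and OLIG2 and CHI3L1 higher in U87 Control (0.627 and 0.714 FPKM) than in U251 Control (0.0284 and 0.0420 FPKM). NES and SPARC fell with Bru in both lines, with log2 ratios of -1.30 and -1.60 in U251 and -1.23 and -1.02 in U87. Of the 5 markers of other cells (PTPRC, PECAM1, EPCAM, CDH5 and ALB), none reached a mean FPKM of 1, and the highest count was 70 reads of PECAM1 in U87 Control.

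RefSeq promoter windows of GRCh38.p14, here the 250 bases before each annotated start, were found for 8 of the 10 genes in 9 windows. FOSL1 and IER3 had none. The sequences below are shown because these genes include the ones that moved most in U87 and because they carry the motifs counted here. Capitals mark TGACGT (the core of the cAMP response element) or its reverse ACGTCA, TGACATCA (a variant bound by JUN and ATF proteins), TATAAA and the CArG box bound by SRF. Each is written 5′ to 3′ on the strand of the gene. Those of FOS, FOSB, EGR1 and ATF3 lie just before the start of the gene in GENCODE, or before the RefSeq start where that comes first, and those of JUN and KLF6 are 30 bases around the match. The JUN site lies before the RefSeq start but inside the gene as GENCODE draws it.
FOS, chr14:75278624-75278773, plus strand: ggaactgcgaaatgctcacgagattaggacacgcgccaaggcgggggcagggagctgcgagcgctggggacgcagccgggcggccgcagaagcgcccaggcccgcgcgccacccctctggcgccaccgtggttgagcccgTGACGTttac
FOSB, chr19:45467845-45467994, plus strand: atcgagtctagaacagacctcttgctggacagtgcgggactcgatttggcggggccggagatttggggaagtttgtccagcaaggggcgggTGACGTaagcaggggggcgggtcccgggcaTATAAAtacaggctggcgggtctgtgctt
EGR1, chr5:138465329-138465478, plus strand: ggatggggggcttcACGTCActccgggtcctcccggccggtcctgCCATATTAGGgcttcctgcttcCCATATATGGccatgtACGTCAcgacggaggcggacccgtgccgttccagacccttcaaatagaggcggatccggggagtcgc
ATF3, chr1:212565184-212565333, plus strand: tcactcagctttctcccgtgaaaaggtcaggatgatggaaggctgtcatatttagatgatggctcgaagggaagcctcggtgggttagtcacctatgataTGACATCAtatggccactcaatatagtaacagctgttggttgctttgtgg
JUN, chr1:58784096-58784125, minus strand: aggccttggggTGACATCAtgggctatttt
KLF6, chr10:3785363-3785392, minus strand: ttggccggagcTGACATCAtcggcgcgcag

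Both strands of the 250 bases were searched. Sites further upstream were not looked for, so that an absence holds for these windows only. TGACATCA was found in the windows of JUN, ATF3 and KLF6, 3 of the 9, while 2.37% of all 35116 windows hold it. TGACGT, a motif added after these promoters had been read, was found in 3 of the 9 windows, those of FOS, FOSB and EGR1, against 7.10% of all windows, and a TGACGTCA would also count as one. The CArG box was found only in EGR1 among the 9 windows, with 2 copies, and 1.159% of all windows hold it. TATAAA lay 33 to 28 bases before the RefSeq start of FOS and at nearly the same place in FOSB and JUNB. Counting 1 of the 2 ATF3 windows, it was present in 4 of the 9 and in 10.7% of all. The AP-1 site TGACTCA and the full element TGACGTCA were in none of the 9, with 4.203% and 1.65% of all windows holding them. The EGR site GCGGGGGCG was in the KLF6 window alone among the 9 (4.72% of all windows), and its variant GCGTGGGCG was in none (0.720% of all). A match is a string of letters, and its use in these cells was not measured.

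In U87 Bru, FOSB and ATF3 rose about 3-fold over U87 Control, and FOS came close to a doubling. In U251, no gene of the 10 rose and IER3 fell. In bulk RNA, a change in the number of cells that carry a transcript and a change in its amount per cell cannot be told apart. The plot of levels shows all 40 values.

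Of the FOS subunits, FOSB (ENSG00000125740, chromosome 19 from 45467995 to 45475179) showed the largest ratio. FOSB had an FPKM of 48.3 (5631 reads) without Bru and 50.8 (5223 reads) with it in U251, against 8.84 (887 reads) and 28.8 (2779 reads) in U87. The U87 Control library stood far below the other 3, and FOSB rose in U87 by a log2 ratio of 1.69 (interval from 1.59 to 1.81), a rank of 99 from the highest among 12949 genes. In U251 its log2 ratio was 0.07 (0.02 to 0.12). The gene-level values hold the full-length FOSB transcript and the short form that encodes a truncated protein together. FOSB overlaps ERCC1 on the other strand, which had 1359, 1293, 1338 and 1329 reads in the order of the libraries above. No stretch of 50 bases was shared between their transcripts, and the counting is not stated to use strand.

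FOS (ENSG00000170345, chromosome 14 from 75278774 to 75282230) encodes the founding partner of JUN in AP-1. Its FPKM was 131 (8926 reads) without Bru and 104 (6245 reads) with it in U251, against 43.3 (2532 reads) and 78.0 (4397 reads) in U87. Both U251 libraries were above both U87 libraries, and the ratio of Bru to Control had opposite signs in the lines. In U87 the log2 ratio of FOS was 0.85 (0.78 to 0.92), which is 1.80-fold, above 97.5% of the genes tested but under the 2-fold line. In U251 it was -0.34 (-0.38 to -0.29).

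FOSL1 (ENSG00000175592, chromosome 11 from 65892049 to 65900573), also named FRA-1, lacks the strong activation domain of FOS and is known from invasive and mesenchymal tumour cells. Its FPKM was 72.0 (2851 reads) without Bru and 50.01 (1749 reads) with it in U251, against 204 (6949 reads) and 197 (6455 reads) in U87. The order of the lines was thus the reverse of that seen for FOS and FOSB. The log2 ratio of FOSL1 was -0.53 (-0.61 to -0.44) in U251 and -0.05 (-0.10 to -0.003) in U87, and the U87 value changed sign, to 0.01, when the libraries were set equal at their 75th percentile.

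Of the JUN subunits, JUN (ENSG00000177606, chromosome 1 from 58780788 to 58784327) had the most reads of the 10 genes in every library. Its FPKM was 230 (17071 reads) without Bru and 141 (9261 reads) with it in U251, against 211 (13476 reads) and 264 (16253 reads) in U87. The Control libraries of the lines lay close together, and the Bru libraries lay on either side of them. The log2 ratio of JUN was -0.70 (-0.74 to -0.67) in U251 and 0.32 (0.29 to 0.36) in U87, both inside the 2-fold lines.

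JUNB (ENSG00000171223, chromosome 19 from 12791496 to 12793315) encodes a JUN partner known to dampen JUN in some promoters. Its FPKM was 67.0 (2557 reads) without Bru and 43.9 (1482 reads) with it in U251, against 71.5 (2352 reads) and 73.0 (2312 reads) in U87. Only the U251 Bru library stood apart, below the other 3, with a log2 ratio of -0.61 (-0.70 to -0.52). In U87 the ratio was 0.03 (-0.05 to 0.11), so that a difference between the U87 libraries was not detectable at this depth. JUNB lies over the end of HOOK2 on the other strand, which had 538, 454, 441 and 398 reads in the order of the libraries above, and the counting is not stated to use strand.

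ATF3 (ENSG00000162772, chromosome 1 from 212565334 to 212620777) encodes a leucine zipper protein that pairs with JUN proteins and is induced by many stresses. It had an FPKM of 36.1 (3062 reads) without Bru and 41.5 (3105 reads) with it in U251, against 9.47 (691 reads) and 27.7 (1951 reads) in U87. As for FOSB, the U87 Control library was the low one and the U87 Bru library came near the U251 libraries. ATF3 rose in U87 by a log2 ratio of 1.54 (1.43 to 1.68), rank 121 from the highest, and had a ratio of 0.20 (0.13 to 0.27) in U251.

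The zinc finger factors EGR1 and KLF6 were inside the 2-fold lines in both cell lines. EGR1 (ENSG00000120738, chromosome 5 from 138465490 to 138469315), which binds GC-rich sites and is a classical target of SRF, had an FPKM of 188 (12398 reads) without Bru and 142 (8287 reads) with it in U251, against 67.4 (3820 reads) and 86.9 (4748 reads) in U87. The U251 libraries stayed above the U87 libraries, and the Bru library was the lower one in U251 and the higher one in U87. The log2 ratio of EGR1 was -0.40 (-0.44 to -0.36) in U251 and 0.37 (0.31 to 0.43) in U87. KLF6 (ENSG00000067082, chromosome 10 from 3775996 to 3785281), a Kruppel-like factor, was the steadiest of the 10 genes. Its FPKM was 59.8 (7695 reads) without Bru and 60.5 (6889 reads) with it in U251, against 77.5 (8602 reads) and 88.9 (9503 reads) in U87. Its log2 ratios were 0.02 (-0.03 to 0.07) in U251 and 0.20 (0.16 to 0.24) in U87, and a difference between the U251 libraries was not detectable.

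IER3 (ENSG00000137331, chromosome 6 from 30743199 to 30744554) was the only one of the 10 genes to fall. Its FPKM was 15.2 (433 reads) without Bru and 5.21 (131 reads) with it in U251, against 52.8 (1294 reads) and 41.0 (967 reads) in U87. The U251 Bru library was the lowest and both U87 libraries were above both U251 libraries. IER3 fell in U251 with a log2 ratio of -1.53 (interval from -1.84 to -1.26), rank 234 from the lowest among 12949 genes, and its log2 ratio in U87 was -0.37 (-0.49 to -0.24). The antisense gene IER3-AS1, which overlaps it, had at most 2 reads in any library.

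IER2 (ENSG00000160888, chromosome 19 from 13150415 to 13154908) encodes a small nuclear protein of the early response. Its FPKM was 48.3 (3113 reads) without Bru and 29.1 (1657 reads) with it in U251, against 31.0 (1722 reads) and 27.4 (1465 reads) in U87. The U251 Control library was the high one, and the other 3 lay close together. The log2 ratio of IER2 was -0.73 (-0.82 to -0.64) in U251 and -0.18 (-0.28 to -0.08) in U87. The antisense gene that covers part of IER2 was listed at 0 reads in all libraries.

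**Figure D1:**
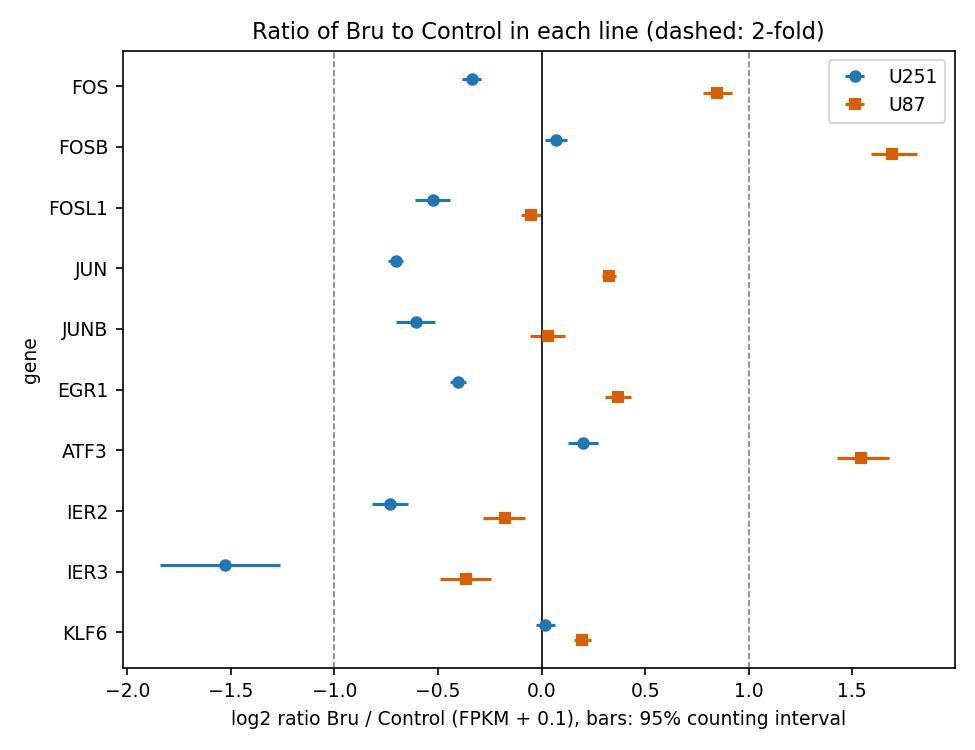
Log2 ratio of Bru to Control (FPKM + 0.1) for the 10 genes in U251 (circles) and U87 (squares), 1 library per condition, with 95% exact counting intervals of the ratio without the added 0.1 and dashed lines at 2-fold. FOSB (1.69) and ATF3 (1.54) in U87 lie past the upper line, IER3 (-1.53) in U251 lies past the lower line, and each gene's U251 point lies to the left of its U87 point.

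In U251, 1 of the 10 genes was past the 2-fold line, against 8.8% of the 12949 genes that average 1 FPKM or more, called the tested genes. In the separate directions, 1 fell where 5.44% of all tested genes fell, and 0 rose where 3.36% rose. Below 0 lay 7 of the 10 log2 ratios and 52.1% of those of all tested genes, and the medians were -0.46 and -0.03. In U87, 2 of the 10 rose, against 1.92% of all tested genes, and 0 fell, against 1.41%, with 3.34% past 2-fold in either direction. There 3 of the 10 ratios were below 0, as were 56.7% of those of all tested genes, and the medians were 0.26 and -0.04. Thus the count in U251 was near that of all genes, while the medians of the 10 genes lay on opposite sides of 0 in the lines. The 10 genes were chosen with earlier results of these data known, so that the shares of all genes give no test of them.

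The lines were compared directly by the log2 ratio in U251 minus that in U87. The study gives the dose of these libraries only as the IC50. Its time course of viability used a higher concentration in U251 than in U87. Dose and line can therefore not be told apart here. The difference of the log2 ratios was below 0 for all 10 genes, while 49.1% of all tested genes were below 0. It ranged from -1.62 to -0.18 with a median of -0.90, beside 0.01 over all. It passed 2-fold for FOSB, ATF3, FOS, IER3 and JUN, 5 of the 10, where 5.11% of all tested genes passed 2-fold in that direction, 3.37% in the other and 8.49% in either. For FOSB the difference was -1.62 (exact conditional interval of the reads from -1.76 to -1.51), for ATF3 -1.34 (-1.50 to -1.21) and for FOS -1.19 (-1.27 to -1.10). These 3 intervals lay wholly past the 2-fold line. Those of IER3 (-1.163, from -1.50 to -0.87) and JUN (-1.03, from -1.08 to -0.98) reached across it, and JUN was inside the line under 4 other scalings. KLF6 had the smallest difference, -0.18 (-0.24 to -0.12). The 10 differences share 4 libraries, so that they are not 10 separate observations. The genes were also chosen with earlier results of these data known, and an excess over the share of all genes was not tested.

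The lines already differed in these genes without Bru. In Control, FOSB was 5.47-fold, ATF3 3.82-fold, FOS 3.04-fold and EGR1 2.80-fold lower in U87 than in U251, whereas IER3 was 3.47-fold and FOSL1 2.83-fold higher in U87. These 6 of the 10 genes were past 2-fold, where 30.4% of all tested genes were past 2-fold between the Control libraries, 16.0% lower and 14.5% higher in U87. Between the Bru libraries, 2 of the 10 were past 2-fold (29.2% of all tested genes, 14.3% higher and 15.0% lower in U87), and both were higher in U87, IER3 by 7.86-fold and FOSL1 by 3.93-fold. FOSB was then 1.77-fold, EGR1 1.64-fold, ATF3 1.49-fold and FOS 1.33-fold lower in U87. The 4 genes that were over 2-fold lower in U87 Control were thus closer between the lines in Bru. The 2 that were over 2-fold higher in U87 Control were further apart. The Control libraries both sort these genes and enter their ratios of Bru to Control. A low draw of the single U87 Control library would favour such a narrowing, and this was not tested. JUN went from 1.09-fold lower to 1.87-fold higher in U87. The shift of each log2 ratio from Control to Bru is the difference of responses above with its sign reversed. It is therefore the same result in another form and not independent of it.

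By FPKM, which depends on the gene lengths used, FOS made up the largest part of the FOS family sum in U251, and FOSL1 did so in U87. The FPKM of FOS, FOSB, FOSL1 and FOSL2 added up to 272 without Bru and 222 with it in U251, against 292 and 337 in U87. FOS held 48.4% of the sum in U251 Control and 46.9% in U251 Bru, and FOSL1 held 69.8% in U87 Control and 58.3% in U87 Bru. FOSB made up 3.03% of the sum in U87 Control and 8.54% in U87 Bru, and 17.8% and 22.9% in U251. The FPKM of JUN, JUNB and JUND added up to 489 without Bru and 274 with it in U251, against 406 and 460 in U87. JUN was the largest part of it in all 4 libraries, from 47.0% to 57.4%. The sum of the JUN family was lowest in U251 Bru, and JUND, a JUN protein with little induction by serum, had an FPKM of 192 without Bru and 88.6 with it in U251, against 124 and 123 in U87. JUND fell in U251 with a log2 ratio of -1.12, and its ratio in U87 was -0.02.

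The order of the levels of the 10 genes differed between the lines. Within a library the order also depends on the gene lengths used, which the counting intervals do not cover. In U251 Control it ran from JUN over EGR1, FOS, FOSL1, JUNB, KLF6, FOSB, IER2 and ATF3 to IER3, and the counting intervals overlapped for the neighbours FOSL1 and JUNB and for FOSB and IER2. In U251 Bru it ran from EGR1 over JUN, FOS, KLF6, FOSB, FOSL1, JUNB, ATF3 and IER2 to IER3, with overlap of EGR1 and JUN, FOSB and FOSL1, and JUNB and ATF3. In U87 Control JUN and FOSL1 came first and overlapped, followed by KLF6, JUNB and EGR1, of which the last 2 overlapped, then IER3, FOS and IER2, and ATF3 and FOSB came last and overlapped. In U87 Bru JUN came first, followed by FOSL1, KLF6 and EGR1, FOS and JUNB, IER3, FOSB, ATF3 and IER2, where KLF6 and EGR1, FOS and JUNB, FOSB and ATF3, and ATF3 and IER2 overlapped. JUN and FOSL1 held the first places of U87 with and without Bru, and IER3 held the last place of U251.

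Related genes were read from lists, and some genes stand in more than 1 list. The lists were chosen with earlier results of these data known, so that their counts beside the shares of all genes are description only. For their counts, the shares of all tested genes are 5.44% that fell and 3.36% that rose in U251. In U87 these shares are 1.41% and 1.92%. Of 32 other immediate early genes, 29 passed the filter on low FPKM. In U251, 6 of them fell and 1 rose, with a median log2 ratio of -0.26, and in U87, 1 fell and 0 rose, with a median of 0.14. The difference of U251 minus U87 was below 0 for 20 of the 29, with a median of -0.45. CTGF, a secreted matrix protein, fell in U251 from an FPKM of 480 to 175 (log2 ratio -1.46) and went from 35.6 to 32.5 in U87. PPP1R15A, which reverses the translational block of the stress response, rose in U251 from 42.3 to 101 (log2 ratio 1.25) and went from 44.0 to 65.1 in U87 (0.56). IER5L fell in U87 (-1.04) and had a ratio of -0.72 in U251. The other genes past the line in U251, named after their values were seen, were EGR3 (-1.04), the nuclear receptors NR4A1 (-1.155) and NR4A2 (-1.08), RHOB (-1.26) and PHLDA1 (-1.14), which all fell.

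Of 13 other AP-1 relatives, 10 passed the filter, and in U251 JUND fell and MAF rose (log2 ratio 1.01), while none was past 2-fold in U87. JDP2, a repressor that pairs with JUN, had ratios of -0.76 and -0.39. The medians of the list were -0.18 in U251 and -0.004 in U87. For this list and the next, 8.8% of all tested genes were past 2-fold in U251 and 3.34% in U87. Of 12 stress-related leucine zipper factors and partners read beside ATF3, all passed the filter, and 2 rose and 1 fell in U251, while none was past 2-fold in U87. DDIT3, also named CHOP, rose in U251 from an FPKM of 12.2 to 46.2 (log2 ratio 1.91) and went from 18.1 to 32.7 in U87 (0.85), and ATF5 rose in U251 (1.08) and had a ratio of 0.43 in U87. CEBPD fell in U251 (-1.13), and is named after its value was seen. XBP1 had ratios of -0.53 and -0.77. ATF3 thus had its larger ratio in U87, and DDIT3 and ATF5 had theirs in U251.

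None of the 9 genes for SRF, its partners and CREB factors was past 2-fold in either line. The same held for the 20 tested genes for MAP kinases and their effector kinases. Past 2-fold were 8.8% of all tested genes in U251 and 3.34% in U87, so that few would be looked for in lists this short. SRF itself stood at a log2 ratio of -0.08 for U251 and -0.12 for U87, a gene chosen after its values were seen. The largest mean changes in the first list were those of ELK3 (-0.63 in U251 and 0.03 in U87), ELK4 (0.50 and -0.27) and ATF1 (0.38 and 0.09). In the second list they were those of RPS6KA2 (-0.91 and -0.24), MAPK3 (-0.57 and -0.47), which encodes ERK1, and RPS6KA3 (-0.64 and -0.36). Transcript levels of kinases do not show their activity.

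The phosphatases and feedback inhibitors of the MAP kinases, many of which are themselves switched on by ERK, fell in U251 for 5 of 13 tested genes of 15, and 1 rose, while none was past 2-fold in U87. Among all tested genes, 5.44% fell and 3.36% rose in U251, and 3.34% were past 2-fold in U87. The medians of the list were -0.55 and -0.18. SPRY1 passed the filter through U251 alone and could not be called in U87, where 12 genes remain without it, with a median of -0.18. Its FPKM was 12.4 in U251 Control and 2.95 in U251 Bru. The Control level thus weighed most in the filter, and the fall of SPRY1 in U251 is not independent of it. SPRY4, an inhibitor of receptor signalling, fell in U251 from an FPKM of 22.3 to 5.46 (log2 ratio -2.01) and went from 8.18 to 7.24 in U87. SPRY2 fell in U251 (-2.01) and had a ratio of -0.99 in U87, and SPRY1 fell in U251 (-2.03) and had 1 read in U87 Control and 0 in U87 Bru. DUSP4 (-1.63) and DUSP6 (-1.29), which encode phosphatases that act on ERK, also fell in U251 and DUSP10 rose (1.09), and these 3 are named after their values were seen.

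Of 17 genes with well-known AP-1 sites, 14 passed the filter, and in U251 5 of them fell and 1 rose, with a median of -0.67. In U87 none was past 2-fold, and the median was -0.08. MMP1 and MMP3 passed the filter through U87, with 5 and 1 reads of MMP1 and 2 and 6 reads of MMP3 in the U251 libraries. Without these 2 genes the counts in U251 were 5 and 1 of 12, and the median was -0.70. PLAU, the urokinase protease, fell in U251 from an FPKM of 126 to 34.4 (log2 ratio -1.87) and had a ratio of -0.61 in U87. LIF fell in U251 (-1.86) and had a ratio of 0.08 in U87, and CXCL8, an attractant of neutrophils, fell in U251 from 62.3 to 21.4 (-1.54) and went from 38.4 to 54.8 in U87 (0.51). CCND1 (-1.59) and IL6 (-1.13) also fell in U251 and SPHK1 rose (1.78), and these 3 are named after their values were seen. The lists were not compared with each other. Beside their counts stand the shares of all tested genes, 5.44% that fell and 3.36% that rose in U251. In U87 the shares were 1.41% and 1.92%.

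IER3 had the largest mean change of the 10 genes over both lines, and the genes with the most similar pattern were sought by the distance between log2(FPKM + 0.1) values centred over the 4 libraries. Among 10841 other protein-coding tested genes, the nearest were SIRPA (distance 0.20), DHX58 (0.20), IFITM2 (0.23), MMP14 (0.24) and SRPX (0.25). MMP14, a membrane-bound metalloproteinase, had an FPKM of 45.5 without Bru and 16.3 with it in U251, against 134 and 107 in U87, so that its 4 libraries stood in the same order as those of IER3. With 4 libraries, many genes can have a like pattern.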

How the data were processed

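The authors deposited FPKM per gene for 4 libraries, made with a NEB Next Ultra kit and sequenced as paired-end reads. Per the labels, the submitters' processing notes name HISAT2 2.0.5, StringTie 1.3.3b, featureCounts 1.5.0-p3, DESeq2 1.16.1 and the build hg18, but the gene coordinates in the deposited files equal those of GENCODE release 29 (GRCh38) for 58735 of 58735 genes, so GRCh38 is used here. FPKM multiplied by the gene length that the authors deposited was a whole multiple of 1 step for 100% of the values above 0 (tolerance 0.01 reads), which gave the reads per gene and library sizes of 17406238 to 20974002 inside the FPKM. These sizes are not the totals of reads on genes. In U251 Control the size was 20974002 and the total 21453561, and in U251 Bru they were 18533374 and 17847910. The reason is not stated, and scaling by the totals is among the alternatives below. At this depth 3 reads on a gene of 1 kilobase correspond to an FPKM of 0.143 to 0.172.

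Log2 ratios were taken on FPKM + 0.1, which understates changes of low genes, and all genes that average 1 FPKM or more served as background. Intervals were Clopper-Pearson for a ratio, the exact conditional interval of the odds ratio for the difference between lines and Poisson for a level. Reads carry no molecular identifiers, so intervals cover counting error only. Shared sequence was checked with stretches of 50 bases against GENCODE transcripts on both strands, where JUNB shared 11.9%, IER2 27.7% and IER3 23.1% with genes on the other strand that overlap them, FOSL1 2.91% with the pseudogene FOSL1P1 (0 reads), and FOSB 0.0515% with other genes. The sources used here do not state that the kit or the counting used strand.

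The 10 genes and the lists were chosen with earlier results of these data known. Named beside the 10 genes are up to 3 genes per list with the largest mean absolute log2 ratio over both lines, and the 5 genes nearest to the one of the 10 with the largest such mean. Scripts (python 3.11.15, scipy 1.17.1, pandas 2.3.3) were tested on simulated data. Other pseudocounts, scalings, filters and interval-based counts were tried as alternatives. List medians without genes under 10 reads in both libraries of a line were added after the data were seen.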

Additional observations from a re-analysis of the deposited data

Results flagged for a closer look

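FOS, JUN, EGR1 and JUNB are listed because Bru and Control stood in opposite order in the 2 lines, lower in U251 Bru and higher in U87 Bru. The log2 ratio in U251 minus that in U87 was -1.19 for FOS, -1.03 for JUN, -0.77 for EGR1 and -0.64 for JUNB. With 1 library per condition this difference between the lines was not tested against replicate error. For FOS, JUN and EGR1 the counting intervals of the ratios excluded 0 in both lines, and for JUNB the interval in U87 (-0.05 to 0.11) included it. The order was the same under each of the pseudocounts and scalings that were tried, with ratios of FOS from -0.34 to -0.25 in U251 and from 0.84 to 0.91 in U87.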

How the results depend on the processing

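No paired analysis was possible because each comparison within a line rests on 1 library per condition, and for the same reason no library could be left out. A fit of Bru over both lines with the line as a block would leave 1 residual degree of freedom and was not run, since it takes the difference between the lines as error. The counts of genes past 2-fold in U251, in U87 and between the Control libraries were the same under each alternative. The count of 5 genes whose response differed more than 2-fold between lines became 3 when the whole interval had to pass, and 4, without JUN, with equal 75th percentiles, with TPM, without mitochondrially encoded genes and with scaling by total reads. The median log2 ratio of the 10 genes became -0.38 in U251 and 0.32 in U87 with equal 75th percentiles, -0.39 and 0.30 without mitochondrially encoded genes, and -0.38 and 0.30 with scaling by total reads, which was chosen after the data were seen, and 0.30 in U87 with the median of all genes set to 0. Of 140 values of single genes under alternatives, 29 moved beyond their counting interval, and FOSL1 in U87 alone changed sign (0.01 with equal 75th percentiles). Scaling to TPM moved the median of all tested genes for U87 over U251 in Bru from -0.02 to -0.12, and no other scaling moved a median by over 0.1. The share of genes past 2-fold in U87 was 3.34% at a minimum mean FPKM of 1, 12.6% at a minimum of 0.1 and 1.1% at a minimum of 5. Depth limited IER3 most, with 131 reads in U251 Bru.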

Other observations

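The relatives of KLF6 and the proteins that bind AU-rich elements, the sequence by which early response transcripts are known to be degraded, were read in the same way. Of 16 other KLF genes, 11 passed the filter and none was past 2-fold in either line, with medians of -0.29 in U251 and -0.07 in U87. KLF2, a factor known from endothelial cells, stood at a log2 ratio of -0.99 for U251 and -0.08 for U87. Its FPKM in U251 was 11.4 without Bru and 5.67 with it, and only the added 0.1 kept it inside the line. KLF4 had ratios of 0.66 and 0.51, and KLF10 had 0.78 and 0.24. Of 15 genes for AU-rich element binding and mRNA decay, all passed the filter and none was past 2-fold. Beside the counts of both lists, 8.8% of all tested genes were past 2-fold in U251 and 3.34% in U87. ZFP36, itself an immediate early gene whose protein promotes decay of such transcripts, had an FPKM of 48.4 without Bru and 34.9 with it in U251, against 28.0 and 45.0 in U87, so that its order in each line was that of FOS and JUN. ZFP36L1 had log2 ratios of -0.46 and -0.30, and DCP2, the decapping enzyme, had -0.48 and -0.16.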
